A study of Mus musculus with 14 samples.

Results

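The transcripts of the MHC class I molecule and of the machinery that loads it with peptide were followed in dorsal horn (DH) microglia. They are 9 genes, B2m, H2-K1, H2-D1, H2-T23, H2-M3, Tap1, Tap2, Tapbp and Nlrc5, taken by their symbols, and all 9 were found among the 14329 genes with deposited values. RNA-seq was made from CD45low CD11b+ CX3CR1+ cells sorted from the dorsal lumbar spinal cord of 6-month-old male and female C57BL/6 wild type (WT) or heterozygous TASTPM mice, with 2000 cells in a sample. The study's gating also left out cells with Ly6C or CCR2, surface proteins of classical monocytes. TASTPM mice carry human APP with the Swedish mutation under a Thy-1 promoter that is active in neurons, so microglia themselves are not the cells that the promoter is meant to drive. Serum transfer (ST) used either serum of arthritic K/BxN mice, which causes joint inflammation in the recipient, or serum of mice without arthritis (Control ST). The 4 groups were WT K/BxN ST and TASTPM K/BxN ST with 4 libraries each, and WT Control ST and TASTPM Control ST with 3 libraries each. Nothing in the labels says which mice went into a sample. The study describes its n as individual mice and its RNA-seq groups as 3 to 4 mice each. The p-values here measure the spread between these libraries.

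Class I molecules present peptides from inside the cell to CD8 T cells. A heavy chain, encoded in the mouse by H2-K1, H2-D1 and a number of less variable genes such as H2-T23 and H2-M3, pairs with the small invariant chain beta-2 microglobulin (B2m). Peptides cut by the proteasome are pumped into the endoplasmic reticulum by the TAP1 and TAP2 transporter, and tapasin (Tapbp) holds the empty heavy chain at the transporter until a peptide fits. NLRC5 is the transactivator that switches these genes on together, and interferon is the best known signal that raises them. In the healthy spinal cord and brain, class I is low on most cells and microglia are among the cells that can raise it.

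The libraries held between 14223015 and 20239175 reads on genes. Values are normalized counts, in which all reads of a library are scaled by 1 shared factor. In 4 K/BxN ST libraries, replicates 1 and 2 of TASTPM and the first 2 of WT in the order of the deposited values, Lyz2, a lysozyme abundant in monocytes and neutrophils, had 258065 to 536223 normalized counts, against 8743 to 22933 in the other 10 libraries. Ly6c2, a classical monocyte transcript, had 12898 to 29133 normalized counts in the 4 libraries and 1.87 to 17.8 in the other 10. S100a8, a neutrophil transcript, had 39499 to 53594 in 3 of the 4, 143 in the second WT K/BxN ST library, and at most 969 elsewhere. Over the whole list of 10 classical monocyte markers, Lyz2 included, the summed share was 2.28% to 4.36% of reads in the 4 libraries and 0.0523% to 0.141% in the other 10. For 11 neutrophil markers it was 0.0629% to 1.39% and 0.0243% to 0.071%, and for 11 microglia markers 2.1% to 5.02% and 5.9% to 7.85%. Dendritic cell markers had 0.00604% to 0.0491% and 0.000544% to 0.00357%, and border-associated macrophage markers 0.00738% to 0.0198% and 0% to 0.00576%. The B cell, endothelial, astrocyte, oligodendrocyte, neuron and red cell lists overlapped between these sets of libraries. All 11 microglia markers had reads in both sets of libraries, whereas none of 8 T and NK cell markers was among the deposited genes. Xist, a transcript of female cells, had 0 to 12.5 normalized counts in the 4 libraries, and in the other K/BxN ST libraries 1.17 and 3980 in TASTPM and 5816 and 3247 in WT. In Control ST it had 2.81, 45.3 and 1706 in WT and 4321, 5048 and 202 in TASTPM, so that leaving out the 4 libraries also changes the make-up by Xist, and the Control ST groups differ in it too. Low Xist also occurred without high Lyz2, in TASTPM K/BxN ST replicate 3 and in the first 2 WT Control ST libraries. Because Control ST holds no such library, values without the 4 are given beside those of the serum comparisons, and the part of these markers in a result was not tested. The share of all genes that lie apart between the 4 libraries and the other 10 was not counted. That a gene follows the 4 is therefore not shown to be a trait of class I genes. In sorted pools, fewer cells of a type and less RNA per cell cannot be told apart.

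B2m was the highest of the 9 transcripts and Nlrc5 the lowest. Per kilobase of merged exons, the mean over 14 libraries was 40152 normalized counts for B2m, 15665 for H2-D1 and 4770 for H2-K1, the classical heavy chains. Tapbp (2393) and the nonclassical H2-T23 (2212) came next, followed by H2-M3 (1009), Tap2 (471), Tap1 (245) and Nlrc5 (15.3). Each neighbour in this order was higher in 14 of 14 libraries, except that Tapbp was above H2-T23 in 10 of 14. By normalized counts without length, B2m ranked 22 and H2-D1 32 among the 14329 genes, H2-K1 114, Tapbp 193 and H2-T23 286, while Nlrc5 ranked 9042. B2m took 0.385% to 0.820% of all reads in a library and H2-D1 0.170% to 0.481%.

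Of the 9 genes, 7 lie on chromosome 17 in the mouse MHC and its surroundings, on GRCm39. Tapbp (34134873 to 34148267, plus strand), H2-K1 (34214987 to 34219321, minus strand), Tap1 (34405996 to 34416199, plus strand) and Tap2 (34422501 to 34435829, plus strand) are close together. H2-D1 (35481691 to 35486475, plus strand), H2-T23 (36340229 to 36345571, minus strand) and H2-M3 (37581106 to 37585384, plus strand) follow. B2m is on chromosome 2 (121977957 to 121983594, plus strand) and Nlrc5 on chromosome 8 (95160984 to 95253900, plus strand). Class I genes are near copies of each other, so it was asked how many 150-base stretches of their annotated transcripts also occur in another gene. The share was 0% for B2m, H2-M3 and Nlrc5, 6.34% for H2-K1 (with H2-Q10 and Gm53999), 6.05% for H2-D1 (with H2-Q1 and 5430410E06Rik) and 2.13% for H2-T23. It was 6.71% for Tap1 (with its neighbour Psmb9), 0.407% for Tap2 and 23.7% for Tapbp, whose transcripts overlap those of Zbtb22, the highest share of the 9. Whether reads were counted by strand is not given in the sources used here.

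The classical heavy chain genes and H2-M3 share the arrangement of their promoters, which is shown because it is the known contact of the class I transactivator and of interferon-induced factors. RefSeq promoters (GRCm38.p6) were held for 7 of the 9 genes, all but Tap2 and Nlrc5, and the 250 bases before the start were searched on both strands for 4 motifs. Capitals mark GAANNGAAA (an interferon-stimulated response element, read here from the other strand), TGACGC (the core of the X box) and CCAAT (the Y box, as ATTGG on the other strand). These motifs do not overlap in the stretches shown. In all 3 genes ATTGG follows TGACGC at the same distance. Counted from the RefSeq start, TGACGC ends at −36 and ATTGG begins at −16 in H2-K1, at −96 and −76 in H2-D1 and at −41 and −21 in H2-M3. For H2-D1 both lie outside the stretch shown, and for H2-M3 this ATTGG does, so the ATTGG and CCAAT in capitals there are other matches.
H2-K1, GRCm39 chr17:34219322-34219501, minus strand, directly before the gene: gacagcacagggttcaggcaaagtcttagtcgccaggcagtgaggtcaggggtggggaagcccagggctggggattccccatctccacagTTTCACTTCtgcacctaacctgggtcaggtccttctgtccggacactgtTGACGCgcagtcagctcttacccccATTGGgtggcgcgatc
H2-D1, GRCm39 chr17:35481899-35481928, plus strand, within the long first exon of the later annotation, ending with the response element: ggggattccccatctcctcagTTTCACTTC
H2-M3, GRCm39 chr17:37580945-37581103, plus strand: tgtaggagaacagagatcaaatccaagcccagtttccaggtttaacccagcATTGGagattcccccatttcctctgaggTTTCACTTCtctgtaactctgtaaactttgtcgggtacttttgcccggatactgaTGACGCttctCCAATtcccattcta

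GAANNGAAA, TGACGC and CCAAT were found together before H2-K1, H2-D1 and H2-M3, and before 23 of 27025 promoters in all (0.0851%). Over the 30 bases that end with the response element, H2-K1 and H2-D1 are identical at 29, and the longest run of identical bases in their windows is 47 long and stood in no other of the 27025 promoters. By itself GAANNGAAA was in 6.34% of all promoters, TGACGC in 6.14% and CCAAT in 34.5%, the last before all 7. TTCNNNGAA, the STAT site, was met before H2-M3 alone of the 7 (7.18% of all promoters). These are matches of letters and no measure of binding.

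To ask how inflammatory arthritis changes class I transcripts, K/BxN ST was compared with Control ST within each genotype. None of the 9 was called in WT or in TASTPM, with a call set at an adjusted p below 0.05 and an absolute log2 fold change above 1 (limma on log2 of the normalized count plus 1, Benjamini-Hochberg over 12645 genes). Over all genes tested, 0.00791% were called in WT and 0% in TASTPM. At an unadjusted p below 0.05 limma gave 0 of the 9 in WT, where 7.13% of all genes passed, and 2 of the 9 in TASTPM, B2m and Nlrc5, where 4.22% passed. edgeR and DESeq2 on the recovered reads called 0 of the 9 in both genotypes, where DESeq2 called 1.0% of all genes in WT and 0.142% in TASTPM and edgeR 0% in both. At an unadjusted p below 0.05 each gave 0 of the 9 in WT and 2 in TASTPM, beside 6.18% (edgeR) and 7.92% (DESeq2) of all genes in WT and 4.03% and 5.46% in TASTPM. None of the 9 was free of overlap between the serum groups in WT (3.67% of all genes had all K/BxN ST libraries above all those of Control ST and 3.71% below), and 1, Nlrc5, was in TASTPM. The median log2 fold change of the 9 was 0.03 in WT, where that of all genes was 0.06, and 0.03 in TASTPM, where that of all genes was 0.01. In each genotype 6 of the 9 had a value above 0, beside 54.0% of all genes in WT and 50.4% in TASTPM. Without the 4 libraries with high Lyz2 the medians were 0.03 and 0.09. With the 2 K/BxN ST libraries of each genotype then left against 3, Nlrc5 lay above Control ST in both genotypes and Tap2 in TASTPM, beside 9.71% of all genes in WT and 9.46% in TASTPM. B2m and Tap1 lay below in TASTPM, beside 9.32% of all genes, and none of the 9 in WT, beside 8.84%.

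**Figure D1:**
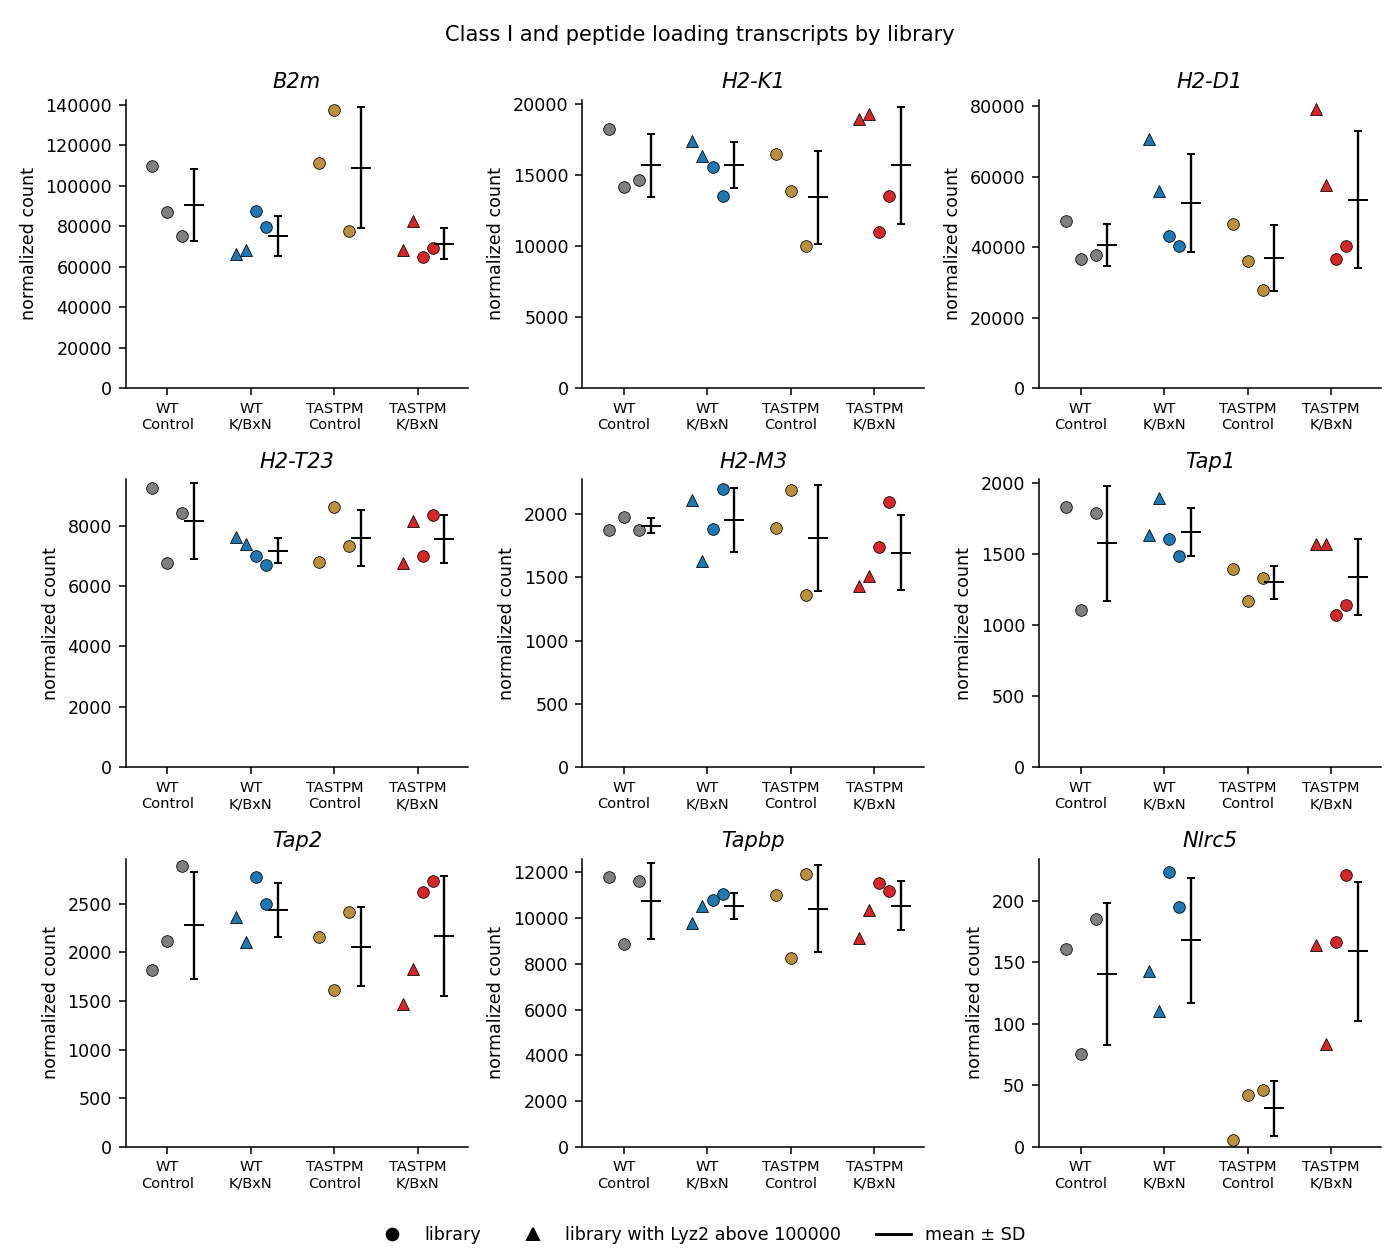
Normalized counts (vertical axis, from 0) of the 9 transcripts in each of 14 libraries, by group, with the mean ± SD of the group to the right of its points. Triangles are the 4 K/BxN ST libraries with over 100000 normalized counts of Lyz2. They are the highest in H2-D1, at 56026 to 79180, and the TASTPM Control ST libraries are the lowest in Nlrc5, at 5.22 to 46.3.

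Among the heavy chains, H2-D1 followed the 4 libraries with high Lyz2. The WT libraries had 70639, 56026, 43053 and 40416 normalized counts after K/BxN ST, against 47294, 36692 and 37678 after Control ST. Replicates 1 to 4 of TASTPM K/BxN ST had 79180, 57606, 36635 and 40426, against 46668, 35968 and 27915 for TASTPM Control ST. In each genotype 2 of 4 K/BxN ST libraries, those with high Lyz2, were above every Control ST library, while the other 2 were within the range of Control ST. The log2 fold change was 0.35 in WT (standard error, SE, 0.30; adjusted p by limma, 0.793) and 0.50 in TASTPM (SE 0.30; adjusted p by limma, 0.964). Without the 4 libraries it was 0.05 in WT and 0.09 in TASTPM.

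H2-K1 showed the same libraries on top in TASTPM and little spread in WT. In WT there were 17396, 16296, 15550 and 13534 normalized counts after K/BxN ST against 18200, 14118 and 14650 after Control ST, with a log2 fold change of 0.01 (95% confidence interval −0.49 to 0.50). In TASTPM the counts were 18919, 19302, 10946 and 13508 after K/BxN ST and 16436, 13876 and 9960 after Control ST, a log2 fold change of 0.21 (95% confidence interval −0.28 to 0.71). The K/BxN ST replicates 1 and 2 were above all 3 Control ST libraries and replicates 3 and 4 were between them. Without the 4 libraries the log2 fold change was −0.10 in WT and −0.11 in TASTPM. The TASTPM value ranged from 0.013 to 0.37 with single libraries left out.

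The nonclassical heavy chains were even across groups. H2-T23, which encodes Qa-1 and shows signal peptides of other class I chains to NK cell receptors, had means of 8143 ± 1250 normalized counts in WT Control ST (SD, n = 3), 7172 ± 421 in WT K/BxN ST (SD, n = 4), 7587 ± 936 in TASTPM Control ST (SD, n = 3) and 7558 ± 803 in TASTPM K/BxN ST (SD, n = 4). H2-M3, which presents formylated peptides, had 1906 ± 60.1 normalized counts in WT Control ST, 1953 ± 253 in WT K/BxN ST, 1810 ± 419 in TASTPM Control ST and 1694 ± 296 in TASTPM K/BxN ST, with the same n. The groups overlapped in each serum comparison. The 95% confidence intervals of the log2 fold changes of H2-T23 were −0.53 to 0.18 in WT and −0.36 to 0.35 in TASTPM. For H2-M3 they were −0.41 to 0.46 and −0.52 to 0.35. When the 4 libraries with high Lyz2 were left out, the log2 fold changes of H2-T23 were −0.24 in WT and 0.02 in TASTPM, and those of H2-M3 0.09 and 0.10.

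B2m was lower after K/BxN ST in both genotypes, in TASTPM with the larger difference, and did not pass the call in either. In WT it had 66115, 68252, 87211 and 79544 normalized counts after K/BxN ST, against 109639, 86884 and 74889 after Control ST, a log2 fold change of −0.26 (SE 0.25; adjusted p by limma, 0.811). In TASTPM they were 68270, 82435, 64935 and 69395 after K/BxN ST, against 111312, 137215 and 77731 after Control ST. Here 3 of 4 K/BxN ST libraries were below every Control ST library, and replicate 2 was above the lowest of them. The log2 fold change in TASTPM was −0.58 (SE 0.25; by limma, unadjusted p = 0.0349 and adjusted p = 0.964). A two-sided exact permutation test over the 35 splits gave p = 0.0571. Without the 4 libraries with high Lyz2 it was −0.66 in TASTPM and −0.10 in WT. With single libraries left out it ranged from −0.80, without the third TASTPM Control ST library, to −0.39, without the second, in TASTPM. In WT the range was −0.38, without the third WT Control ST library, to −0.11, without the first. DESeq2 gave B2m in TASTPM an adjusted p of 0.408.

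As a ratio of reads within a library, both classical heavy chains stood higher against B2m after K/BxN ST in TASTPM. The ratios were chosen after the values were seen, so they are a description with no test. In TASTPM the ratio of H2-D1 to B2m was 1.16, 0.699, 0.564 and 0.583 after K/BxN ST, against 0.419, 0.262 and 0.359 after Control ST. The groups did not overlap, and with B2m lower in TASTPM K/BxN ST the same was so for 15.7% of all other genes tested set against B2m. In WT the ratio was 1.07, 0.821, 0.494 and 0.508 after K/BxN ST and 0.431, 0.422 and 0.503 after Control ST, so that the libraries without high Lyz2 met the upper end of Control ST. H2-K1 to B2m was 0.169 to 0.277 in TASTPM K/BxN ST and 0.101 to 0.148 in TASTPM Control ST, also without overlap. In WT it was 0.170 to 0.263 after K/BxN ST and 0.162 to 0.196 after Control ST, and the 2 libraries without high Lyz2 were within the range of Control ST. A further ratio, Tap1 to Tap2, overlapped in both genotypes, at 0.576 to 0.900 after K/BxN ST and 0.523 to 1.00 after Control ST in WT, and 0.409 to 1.07 and 0.552 to 0.726 in TASTPM.

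The ratio of the 2 classical heavy chains is likewise a description with no test. In WT the ratio of H2-D1 to H2-K1 was 2.60, 2.60 and 2.57 after Control ST and 4.06, 3.44, 2.77 and 2.99 after K/BxN ST. In TASTPM it was 2.84, 2.59 and 2.80 after Control ST and 4.19, 2.98, 3.35 and 2.99 after K/BxN ST. In both genotypes each K/BxN ST library was above each Control ST library. Set against H2-K1 in the same way, 3.87% of the other genes tested were so placed in WT, 0.981% in TASTPM and 0.0791% in both. H2-D1 and H2-K1 share 6.05% and 6.34% of 150-base stretches with other class I or overlapping genes, whose share of these reads was not tested.

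**Figure D2:**
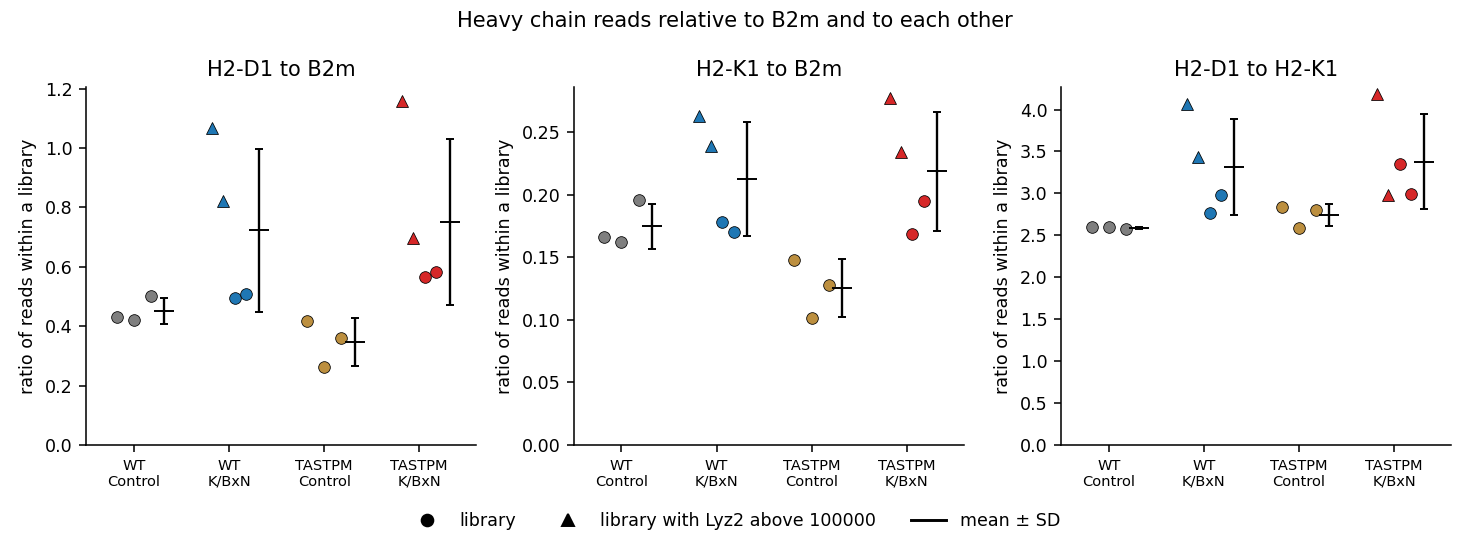
Ratio of reads within a library (vertical axes, from 0) for H2-D1 to B2m, H2-K1 to B2m and H2-D1 to H2-K1 in 14 libraries by group, with the mean ± SD to the right of the points and triangles for the 4 libraries with over 100000 normalized counts of Lyz2. For H2-D1 to H2-K1 the Control ST libraries sit between 2.57 and 2.84, and the K/BxN ST libraries of the same genotype sit above them, at 2.77 to 4.06 in WT and 2.98 to 4.19 in TASTPM.

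Over all libraries, the transcripts of the peptide transporter and tapasin overlapped between the serum groups. In WT, Tap1 had 1634, 1892, 1601 and 1487 normalized counts after K/BxN ST, against 1827, 1107 and 1787 after Control ST. In TASTPM it had 1569, 1567, 1073 and 1144 after K/BxN ST, against 1396, 1169 and 1331 after Control ST. The groups overlapped in both genotypes. Tap2, its partner, had 2366, 2103, 2780 and 2494 normalized counts in WT after K/BxN ST, against 1824, 2118 and 2893 after Control ST. In TASTPM it had 1472, 1826, 2626 and 2739 after K/BxN ST, against 2155, 1610 and 2411 after Control ST. Within TASTPM K/BxN ST the partners went opposite ways, with Tap1 high and Tap2 low in replicates 1 and 2, those with high Lyz2, while replicates 3 and 4 were below every Control ST library in Tap1 and above every one in Tap2. The log2 fold change of Tap1 was 0.10 in WT (95% confidence interval −0.37 to 0.58) and 0.03 in TASTPM (−0.45 to 0.50), and 0.0077 in WT and −0.23 in TASTPM without the 4 libraries. That of Tap2 was 0.12 in WT (95% confidence interval −0.41 to 0.64) and 0.05 in TASTPM (−0.48 to 0.57), and 0.24 in WT and 0.40 in TASTPM without the 4 libraries. Tapbp had means of 10744 ± 1646 (WT Control ST), 10525 ± 550 (WT K/BxN ST), 10398 ± 1899 (TASTPM Control ST) and 10546 ± 1074 normalized counts (TASTPM K/BxN ST). Its log2 fold change was −0.02 in WT (95% confidence interval −0.40 to 0.36) and 0.03 in TASTPM (−0.35 to 0.41), and 0.03 and 0.14 without the 4 libraries.

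Nlrc5, the transactivator, was the member with the largest difference, and it lay in TASTPM Control ST. Its normalized counts were 5.22, 42.2 and 46.3 in TASTPM Control ST, which are 5, 38 and 51 reads. TASTPM K/BxN ST had 164, 83.7, 167 and 221. The WT libraries had 161, 75.4 and 185 after Control ST, against 143, 111, 223 and 195 after K/BxN ST. Every TASTPM Control ST library was below every library of the other 3 groups, and those 3 groups overlapped each other. The share of all genes placed so against the 3 groups together was not counted. Within TASTPM the log2 fold change after K/BxN serum was 2.69 (SE 0.70; 95% confidence interval 1.2 to 4.19), a 6.47-fold difference on the scale with 1 added. Its limma unadjusted p was 0.00166 and its adjusted p 0.964, so it was not called, and the two-sided exact permutation test gave p = 0.0286, the smallest that 35 splits allow. Of all genes tested, 2.67% had every TASTPM K/BxN ST library above every TASTPM Control ST library. In WT the log2 fold change was 0.30 (SE 0.70; adjusted p by limma, 0.928).

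The difference in Nlrc5 rested in part on 1 library. Without the first TASTPM Control ST library, that with 5 reads, the log2 fold change in TASTPM was 1.74 (limma adjusted p = 0.990). It was 3.05 without the 4 libraries with high Lyz2, where that in WT was 0.67, and among those 4 Nlrc5 was at 83.7 to 164 normalized counts. edgeR gave an unadjusted p of 0.00521 and an adjusted p of 0.996, and DESeq2 gave an unadjusted p of 0.000335 and no adjusted p.

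**Figure D3:**
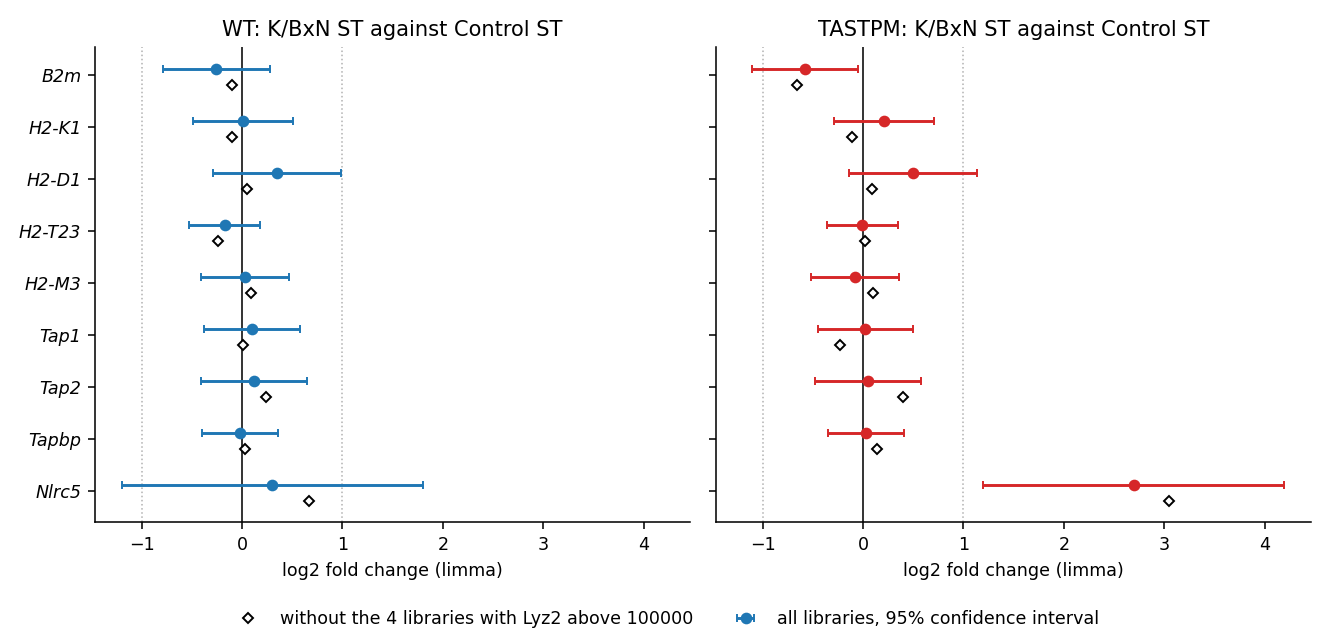
Log2 fold changes (horizontal axis, limma) of the 9 transcripts between K/BxN ST and Control ST in WT (blue) and TASTPM (red), with 95% confidence intervals as bars, and open diamonds for the fit without the 4 libraries with over 100000 normalized counts of Lyz2. Dotted lines mark a log2 fold change of 1 in each direction. All 9 lie inside them in WT, from −0.26 to 0.35, and 8 of 9 in TASTPM, where Nlrc5 is at 2.69.

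The serum response was then compared between genotypes. The interaction of genotype and serum called 0 of the 9 in limma, with 1 at an unadjusted p below 0.05 and a background of 0% called and 3.04% at that p, and edgeR and DESeq2 called 0 of the 9, beside 0.0949% of all genes in DESeq2. That 1 was Nlrc5, whose response was higher in TASTPM by 2.39 on the log2 scale (95% confidence interval 0.27 to 4.51, limma unadjusted p = 0.0294, adjusted p = 0.999). For B2m the difference of the responses was −0.32 (95% confidence interval −1.07 to 0.43, limma adjusted p = 0.999). These were 2.38 for Nlrc5 and −0.56 for B2m without the 4 libraries with high Lyz2. With single libraries left out, Nlrc5 ranged from 1.44, without the first TASTPM Control ST library, to 2.90. B2m ranged from −0.54, without the third TASTPM Control ST library, to −0.13, without the second. The median over the 9 was 0.05, and −0.05 over all genes.

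Genotypes were also compared within each serum. In Control ST, 8 of the 9 had lower values in TASTPM than in WT, with a median log2 fold change of −0.14 (0.04 over all genes, of which 53.2% were above 0). The part of the difference in Xist between these groups was not tested here. limma called 0 of them, against 0% of all genes, and 1 reached an unadjusted p below 0.05, which 5.57% of all genes did. It was Nlrc5, at a log2 fold change of −2.50 (SE 0.75; by limma, unadjusted p = 0.00462 and adjusted p = 0.703). The exact permutation test, two-sided, gave p = 0.100, which is the lowest possible with 3 against 3. Every TASTPM Control ST library was below every WT Control ST library, as was so for 4.71% of all genes, while none of the 9 was placed the other way round (4.97% of all genes). This comparison and the serum comparison in TASTPM share the 3 TASTPM Control ST libraries. Without the first of these the value was −1.55. DESeq2 gave Nlrc5 an adjusted p of 0.177 and called 0 of the 9, against 0.324% of all genes. B2m was the gene with the value above 0, at 0.24 (95% confidence interval −0.32 to 0.81).

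After K/BxN ST the genotypes were close. Again 8 of the 9 had lower values in TASTPM, with a median log2 fold change of −0.08 (49.9% of all genes were above 0), and the range ran from −0.32 for Tap1 (95% confidence interval −0.76 to 0.12) to 0.07 for H2-T23 (−0.26 to 0.40). limma called 0 of 9 and gave 0 an unadjusted p below 0.05, with 0% and 1.91% over all genes, and edgeR and DESeq2 also called 0 of the 9. Over all libraries the 9 overlapped between the genotypes, whereas 1.16% of all genes had every TASTPM K/BxN ST library above those of WT and 0.672% below. Nlrc5 was at −0.11 (95% confidence interval −1.50 to 1.28). Without the 4 libraries with high Lyz2 the median was −0.12, and 3 of 9 had values above 0. With 2 libraries left against 2, H2-T23 and Tapbp lay above WT (16.8% of all genes) and B2m, H2-K1 and Tap1 below (17.0% of all genes).

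The rest of the class I pathway was read from 5 lists. None of the 58 genes tested was called in either serum comparison by limma or by DESeq2, and 4 in WT and 3 in TASTPM had an unadjusted limma p below 0.05, beside the 7.13% and 4.22% of all genes. Of 12 genes that supply peptides, 8 were higher in WT and 10 in TASTPM, with medians of 0.24 and 0.20, which became −0.09 and 0.07 without the 4 libraries with high Lyz2. Psmb8 and Psmb9, catalytic subunits of the immunoproteasome, followed these libraries, and the share of all genes that did so was not counted. Psmb8 had 3278 to 4746 normalized counts in the 4 libraries and 1546 to 2753 in the other 10, with a log2 fold change of 0.52 in TASTPM (limma adjusted p = 0.964) and 0.08 without the 4, and of 0.33 and −0.22 in WT. Psmb9 had 1743 to 1856 in the 4 and 581 to 1373 in the other 10, with log2 fold changes of 0.50 in WT (limma adjusted p = 0.776) and 0.47 in TASTPM, and of 0.10 and −0.06 without the 4. Tpp2, a peptidase of the cytosol, differed by 0.50 in TASTPM, and by 0.91 without the 4 libraries (limma unadjusted p = 0.0234), against −0.10 and −0.048 in WT. Replicate 3 of TASTPM K/BxN ST had 3959 normalized counts of Tpp2, against 1556 to 2156 in replicates 1, 2 and 4. With single libraries left out the TASTPM value ranged from 0.22 to 0.67. Lap3, an aminopeptidase, had a log2 fold change of −0.55 in WT (−0.23 without the 4) and Blmh, bleomycin hydrolase, one of 0.23 in WT (0.30 without the 4), and in TASTPM these were −0.31 (0.058) and 0.07 (0.15). Psme1, of the PA28 proteasome activator, had one of 0.46 in TASTPM (0.10 without the 4) and 0.24 in WT (−0.10). Its TASTPM value ranged from 0.11 to 0.65 with single libraries left out.

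The chaperones that fold the heavy chain in the endoplasmic reticulum had mostly lower values after K/BxN ST over all libraries, and in TASTPM no longer without the 4 with high Lyz2. Of 8 genes, 2 were higher and 6 lower in each genotype, with medians of −0.26 in WT and −0.20 in TASTPM, beside the 54.0% and 50.4% of all genes with a value above 0. With these left out 1 was higher in WT and 4 in TASTPM, with medians of −0.19 and −0.048. In WT, calreticulin (Calr), a part of the loading complex, had 12151, 15093, 15884 and 14267 normalized counts after K/BxN ST and 17321, 16617 and 20222 after Control ST. In TASTPM it had 14172, 15881, 15881 and 14990 after K/BxN ST and 18154, 18920 and 15919 after Control ST. In both genotypes all K/BxN ST libraries lay below all those of Control ST, in TASTPM by a narrow margin, while 3.71% of all genes were so placed in WT and 2.74% in TASTPM. Its log2 fold change was −0.33 in WT (SE 0.16; adjusted p by limma, 0.699) and −0.21 in TASTPM (limma adjusted p = 0.964). It was −0.26 and −0.19 without the 4 libraries. Hspa5, the chaperone BiP, was placed likewise in WT, with 17987 to 20106 normalized counts after K/BxN ST and 23920.5 to 27559 after Control ST, a log2 fold change of −0.45 (by limma, unadjusted p = 0.0329 and adjusted p = 0.684). It was −0.38 without the 4 libraries. In TASTPM the log2 fold change of Hspa5 was −0.26, and −0.23 without the 4, but −0.048 without the first TASTPM Control ST library, which stood at 37337 normalized counts. That of Canx, calnexin, was −0.40 in WT, and −0.23 without the 4, and in TASTPM −0.27 and 0.011. Uggt1, which tests whether a glycoprotein is folded, had a log2 fold change of 0.65 in TASTPM (by limma, unadjusted p = 0.0107 and adjusted p = 0.964), and of 0.74 without the 4. In WT it was −0.23, and −0.30 without the 4. The TASTPM Control ST libraries, at 1268 to 2085 normalized counts, lay below those of WT Control ST, at 2579 to 3577, as did 4.71% of all genes.

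**Figure D4:**
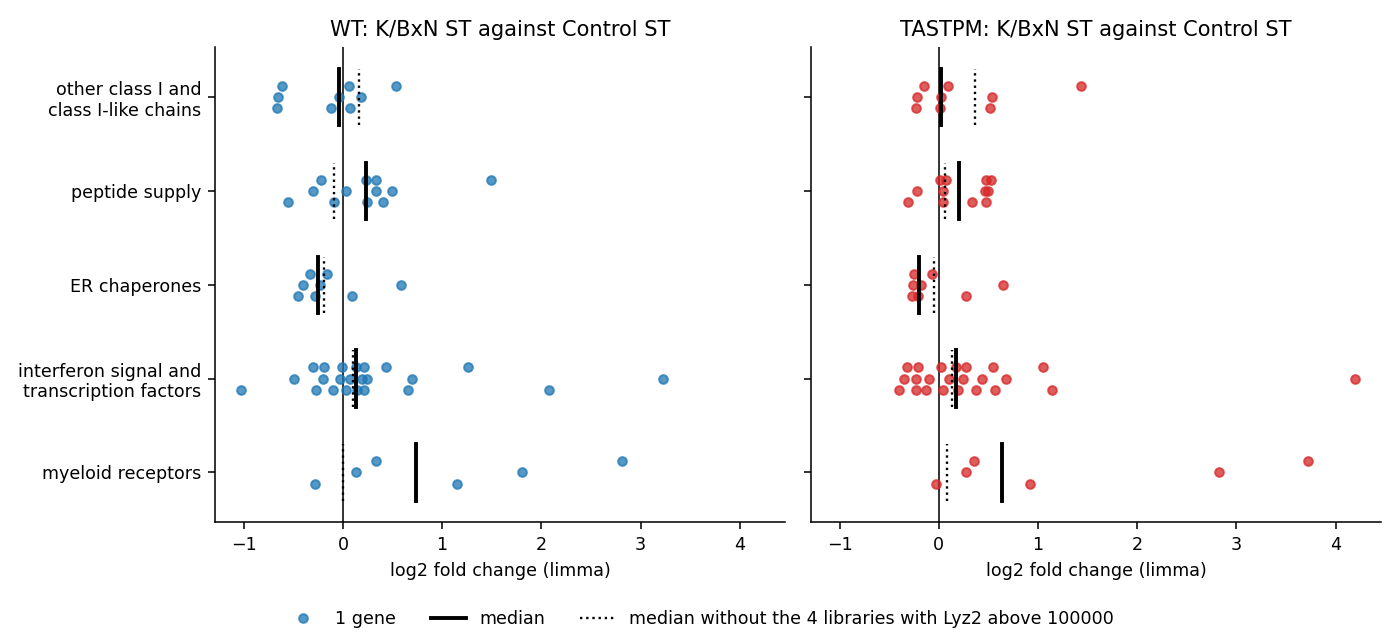
Log2 fold changes (horizontal axis, limma) between K/BxN ST and Control ST for each tested gene of 5 class I pathway lists, in WT (blue) and TASTPM (red), with the median as a solid line and the median without the 4 libraries with over 100000 normalized counts of Lyz2 as a dotted line. The medians of the myeloid receptors are 0.74 in WT and 0.64 in TASTPM, and fall to −0.00124 and 0.09 when these libraries are left out.

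Of 23 interferon signal and transcription factor genes tested, 14 were higher in WT and 15 in TASTPM, with medians of 0.14 and 0.18, which were 0.10 and 0.14 without the 4 libraries with high Lyz2. Irf7, an interferon-induced factor, had 1268 to 1752 normalized counts in the 4 libraries with high Lyz2 and 0 to 387 in the other 10. Its log2 fold change in TASTPM was 4.20 (SE 1.46; adjusted p by limma, 0.964), and 2.80 without the 4. The third TASTPM Control ST library was listed at 0, and without it, but with the 4 kept in, the value was 1.67. The 2.80 compared 317 and 169 normalized counts after K/BxN ST with 181, 204 and 0 after Control ST, which overlap. In WT the log2 fold change of Irf7 was 1.26, and 0.20 without the 4. Irf1, which acts on the class I promoter, had 1881, 1441, 1620 and 1611 normalized counts in TASTPM after K/BxN ST, against 1195, 1154 and 1429 after Control ST, without overlap, a log2 fold change of 0.38 (limma adjusted p = 0.964), and of 0.37 without the 4. The TASTPM Control ST libraries also lay below those of WT Control ST in Irf1, at 1530 to 2000, as did 4.71% of all genes. In WT the log2 fold change of Irf1 was 0.03, and −0.30 without the 4. Nfyc, a subunit of the factor that binds CCAAT, had 867 to 1027 and 545 to 642, also without overlap, a log2 fold change of 0.68 (by limma, unadjusted p = 0.0253 and adjusted p = 0.964), and of 0.64 without the 4, and in WT of 0.14 and −0.09. Stat2, at 0.54 and without the 4 at 0.53, made up the third of the 23 so placed in TASTPM, where 2.67% of all genes were, and 0 of the 23 were placed the other way. In WT, 3 had all K/BxN ST libraries below those of Control ST (3.71% of all genes), namely Ifngr2 and Ifnar2, interferon receptor subunits, and Irf8, a factor of myeloid cells, with log2 fold changes of −0.19, −0.30 and −0.50, and of −0.17, −0.38 and −0.37 without the 4. In TASTPM these were −0.12, −0.23 and −0.32, and −0.16, −0.10 and 0.12 without the 4. Atf1 alone was placed above in WT (3.67% of all genes), at 0.65, and at 0.63 without the 4, against −0.23 and −0.60 in TASTPM. In WT, Rfxank, a subunit of the factor on the X box, had a log2 fold change of 2.07 (SE 0.82), Tyk2, a kinase of the interferon receptor, one of 0.69 (SE 0.29) and Nfyb one of 3.23 (SE 1.44), each with a limma adjusted p of 0.668 to 0.684. With the 4 left out these were 1.92, 0.51 and 3.03. In TASTPM they were 0.44, 0.18 and 0.27, and 0.72, 0.14 and −0.10 with the 4 left out. The values of Nfyb and Rfxank turned on the first WT Control ST library, with 0 and 5.62 normalized counts, while all other libraries had 226 to 638 for Nfyb and 97.2 to 350 for Rfxank. Without that library the values were 0.40 for Nfyb and 0.64 for Rfxank.

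Other class I and class I-like chains gave 9 genes to test, with 4 higher in WT and 6 in TASTPM, and 0 with an unadjusted p below 0.05 in limma. The medians were −0.04 and 0.03, and 0.17 and 0.36 without the 4 libraries with high Lyz2. H2-Q7 had a log2 fold change of 1.43 in TASTPM (SE 1.02), and of 0.82 without the 4. It rested on the third TASTPM Control ST library, with 2 reads, without which it was 0.10. In WT it was −0.66, and −0.50 without the 4. Cd1d1, which presents lipids, had one of −0.66 in WT (SE 0.43) and H2-T22 one of 0.54 in WT (SE 0.62), and without the 4 these were −0.32 and 0.41. With single libraries left out the WT values ranged from −0.91 to −0.29 for Cd1d1 and from 0.27 to 0.82 for H2-T22. In TASTPM the values had the other sign, at 0.09 for Cd1d1 (0.67 without the 4) and −0.23 for H2-T22 (−1.24 without the 4). For H2-T22, TASTPM K/BxN ST replicate 3 had 61.1 normalized counts. Replicates 1, 2 and 4 had 313 to 608, and TASTPM Control ST 223 to 503. The TASTPM mean of normalized counts was higher after K/BxN ST, at 375 against 347, so the sign for H2-T22 is not firm. Hfe, which binds the transferrin receptor, had one of 0.18 in WT, Fcgrt, the receptor that salvages antibodies, one of −0.14 in TASTPM, and H2-Q6 one of 0.52 in TASTPM, and without the 4 these were 0.17, −0.04 and 0.22. In the other genotype they were 0.01, −0.12 and −0.62, and 0.36, −0.30 and 0.23 without the 4. Of the myeloid receptors that read class I or limit attack, 6 were tested and 5 were higher in each genotype. Pirb, an inhibitory receptor of class I, had 3516 to 8207 normalized counts in the 4 libraries with high Lyz2 and 775 to 1547 in the other 10, with log2 fold changes of 1.15 in WT (limma adjusted p = 0.764) and −0.08 without the 4, and in TASTPM of 0.92 and −0.38. Its activating counterpart Pira2 had 220 to 634 in the 4 and 0 to 69.4 in the other 10, and log2 fold changes of 2.83 in TASTPM (limma adjusted p = 0.964) and −0.57 without the 4, and in WT of 1.80 and −1.13. Cd47, a signal against phagocytosis, had 7742 to 11679 in the 4 and 4644 to 6623 in the other 10. Lilrb4a had a log2 fold change of 3.72 in TASTPM (SE 1.82; adjusted p by limma, 0.964), with 58.7 to 388 normalized counts after K/BxN ST and 0 to 41.1 after Control ST. In WT it was 2.81 (SE 1.82; adjusted p by limma, 0.760). Without the 4 it was 2.99 in TASTPM and 1.34 in WT. The first TASTPM Control ST library was at 0, and the TASTPM value was 2.01 without it. In WT, 2 Control ST libraries and 1 K/BxN ST library were at 0, and with single libraries left out the value ranged from 1.87 to 4.58.

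The 9 members did not vary as a block over the libraries. Each was scaled to its own mean and SD over 14 libraries, and the scaled values were averaged. This mean had a Pearson r of 0.70 with Tap1, 0.57 with H2-K1, 0.57 with H2-T23, 0.16 with Tap2 and 0.04 with B2m. For Nlrc5, H2-M3, H2-D1 and Tapbp r was 0.43, 0.37, 0.36 and 0.30. Each member is itself part of the mean, which raises its r, so these values do not compare with those of genes outside the 9. The genes outside the 9 with the highest r to this mean were Fbxo17 (0.84), Limd2 (0.84), Sh2b2 (0.81), Nudt2 (0.78), Tomm40l (0.78), Gm9001 (0.77), Gm20717 (0.77), Zfp12 (0.77), Tubgcp2 (0.77) and Zfp524 (0.76). Over the 10 libraries without high Lyz2 their r was 0.79 to 0.90, and 3 of them were among the 10 highest there. None of the 10 is on the pathway lists, and only 4 of them were also among the 10 highest by Spearman's rho. All points share the scaling of their library, and the likeness is a description over 14 libraries.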

How the data were processed

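The authors prepared cDNA with the SMART-Seq v4 kit, aligned 150-base paired reads to GRCm39 with HISAT2 2.1, and counted them with featureCounts 1.5.2, with FastQC 0.11.9, Picard and DESeq2 also named in the submitters' processing notes. The deposited signal is a normalized read count, the reads of a gene divided by 1 factor per library. 100% of the deposited values were whole multiples of the value of 1 read (tolerance 0.01 of a read), so whole reads were recovered. Of 14336 entries, 7 repeated an identifier and were left out, and 33 genes had no symbol. Columns were assigned by the group named above them. Only TASTPM K/BxN ST has numbers that match the labels, and the other libraries are in the order of the deposited values.

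The test took the 12645 genes, all 9 members among them, that had 10 reads or more in 7 or more of the 14 libraries. A single limma fit (version 3.58.1, R 4.3.3) to log2 of the normalized count plus 1 covered all 4 groups and let the prior variance follow the mean level. Log2 fold changes of genes with libraries at or near 0 depend on the added 1 and on the method. For Nlrc5 in TASTPM limma gave 2.69, edgeR 2.34 and DESeq2 2.35. Alternatives were other scalings, pseudocounts and filters, limma without a trend, robust or on the compared groups alone, edgeR 4.0.16 and DESeq2 1.42.0 on the recovered reads, covariates for monocyte and neutrophil markers and for sex-linked expression, and the omission of libraries. The limma step was tested on simulated data. Each member was also tested by exact permutation, two-sided, where 4 libraries against 3 can be split in 35 ways and p cannot fall below 0.0286. Intervals cover the spread between libraries.

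The members and lists were chosen with earlier results of these data known. Named were the 9 members, the called genes and the 3 smallest p-values of each list in each serum comparison, 10 genes most like the members, and Lyz2, Ly6c2 and S100a8. Stat2, Ifngr2, Ifnar2, Irf8, Atf1, Xist and the ratios were named after their values were seen. Positions, exon lengths and shared stretches are from GENCODE on GRCm39, an annotation later than that of the authors. A part of the description of the TASTPM genotype is not reported here.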

Additional observations from a re-analysis of the deposited data

How the results depend on the processing

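No paired analysis was possible because the replicate numbers in the labels run on from group to group and are not shared between groups. None of the 9 members was called in any of the 5 comparisons under any of the 16 alternatives (15 for the interaction), with the omission of any single library, or on an adjusted p below 0.05 alone, except that DESeq2 gave Nlrc5 no adjusted p in the serum comparison in TASTPM. The median log2 fold change of the members moved by less than the spread between libraries, except without the second WT Control ST library, where it became −0.092 in WT and 0.18 for the interaction. With single libraries left out it ranged from −0.092 to 0.076 in WT, 0.00224 to 0.0995 in TASTPM, −0.011 to 0.18 for the interaction, −0.22 to −0.0755 between Control ST groups and −0.14 to −0.038 between K/BxN ST groups. Of the 10 genes most like the members, 4 remained with Spearman's rho, and the order by level per length was the same for 9 of 9 members with the longest transcript in place of merged exons.

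Of 55 values of single genes, 34 kept their sign throughout, and the cause of the other changes was not tested. These 55 take a gene of the lists only in the genotype where its p was among the 3 smallest. Values in the other genotype are outside this tally, and some of them also turned without the 4, such as Pira2 and Psmb8 in WT and Pirb and Psmb9 in TASTPM. Without the 4 libraries with high Lyz2, log2 fold changes in WT turned to −0.10 for H2-K1, 0.034 for Tapbp, −0.077 for Pirb and −0.063 for Cd47. In TASTPM they turned to −0.11 for H2-K1, 0.017 for H2-T23, 0.10 for H2-M3, −0.23 for Tap1, −0.57 for Pira2 and −0.070 for Cd47. With the monocyte and neutrophil score they turned in WT to −0.20 for H2-K1, −0.067 for Tap1, 0.055 for Tapbp, −0.039 for H2-T22, −0.029 for Pirb and −0.049 for Cd47, and in TASTPM to −0.0141 for H2-K1, 0.029 for H2-M3, −0.16 for Tap1, −0.59 for Pira2 and −0.063 for Cd47. With the sex-linked score H2-M3 turned to −0.057 in WT and 0.10 in TASTPM, and Tap1 to −0.072 in TASTPM. Upper quartile scaling gave −0.018 for H2-K1 in WT, and −0.0166 for Tap1 and −0.0102 for Tapbp in TASTPM, and library totals gave 0.038 for Tapbp in WT and 0.015 for H2-T23 in TASTPM. With single libraries left out, WT values ranged from −0.063 to 0.12 for H2-K1, −0.034 to 0.11 for H2-M3, −0.13 to 0.23 for Tap1, −0.031 to 0.30 for Tap2, −0.15 to 0.053 for Tapbp, −0.092 to 0.55 for Nlrc5 and −0.050 to 0.30 for Hfe. TASTPM values ranged from −0.079 to 0.092 for H2-T23, −0.28 to 0.066 for H2-M3, −0.059 to 0.12 for Tap1, −0.12 to 0.22 for Tap2, −0.12 to 0.14 for Tapbp, −0.24 to 0.0042 for Fcgrt and −0.20 to 1.07 for H2-Q6. Nlrc5 between the K/BxN ST groups ranged from −0.29 to 0.17. With 3 or 4 libraries a group, the 95% confidence intervals of the serum comparisons reached 0.35 to 1.5 to each side on the log2 scale.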
